A study of Homo sapiens with 4 samples.

Results

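MicroRNA hairpins yield a duplex of 2 short strands, and this account concerns the less favoured or 3′-arm strands of human hairpins. Of 455 human miRNA match probes on the array, 44 had a name ending in a star or in -3p, 28 with a star and 16 with -3p. All bear numbers below that of miR-548, the limit set for the group, which removed none. They were chosen by name, among 1406 probes in all, without regard to their signal. For 42 of the 44 the array also held a probe for the other strand, under the same name without the star or with -5p. MiR-517* and miR-518a-2* had no such probe.

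The samples were LNCaP cells, an established prostate adenocarcinoma line with an androgen receptor, kept without androgen for 24 hours, in medium whose serum (10%) had been stripped with charcoal. The synthetic androgen R1881 was then added at 0.1, 1 or 10 nM, or not at all (0 nM), and the length of that treatment is not stated. From each dose 10 µg of Cy3-labelled total RNA went to 1 custom CombiMatrix array, so there were 4 arrays and no replicates. No ratio between doses has an error of its own. The labels do not say whether the doses were parallel flasks of a single culture. Of the 6 epithelial marker miRNAs, 5 were detected, miR-429 being the exception. Of the luminal markers, miR-148a was detected on 3 arrays and miR-375 on none. None of 5 blood, 3 muscle and 3 liver or neuron markers was detected, and among 5 markers of stroma and endothelium the array at 10 nM alone detected miR-214.

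In the usual course, Dicer cuts the hairpin into a duplex, an Argonaute protein keeps the guide strand, and the other, the passenger or star strand, is degraded. Some hairpins leave both strands in the cell. The star in older names marked the strand that was found less often, whereas -3p and -5p name the arm of the hairpin and say nothing about which strand is kept. MiR-142-3p, for example, is an abundant strand in blood cells. The strand that is kept decides the seed, bases 2 to 8, which pairs with target mRNAs, so the strands of a hairpin address different targets.

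The sequences below come from the 7 hairpins whose other strand was detected, miR-425-5p among them, since these are the places where the array could set a seen strand beside an unseen one. Each strand with an entry in the table used is shown. They are RefSeq mature sequences of GRCh38.p14, 5′ to 3′, with the seed in capitals. The probes' own letters are not in the files, and older miRNA entries may have differed by an end base.
miR-17-3p: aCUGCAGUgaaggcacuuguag
miR-17-5p: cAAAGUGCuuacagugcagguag
miR-191*: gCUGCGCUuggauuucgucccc
miR-191: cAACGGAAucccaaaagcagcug
miR-200a*: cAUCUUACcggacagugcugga
miR-200a: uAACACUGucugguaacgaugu
miR-182*: uGGUUCUAgacuugccaacua
miR-182: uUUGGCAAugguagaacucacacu
miR-324-3p: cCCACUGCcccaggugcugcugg
miR-324-5p: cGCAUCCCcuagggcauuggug
miR-425-3p: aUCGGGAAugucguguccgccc
miR-432*: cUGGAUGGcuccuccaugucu
miR-432: uCUUGGAGuaggucauugggugg

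MiR-17-3p lies at chr13:91350655-91350676 on the plus strand, within the bounds of the non-coding host gene MIR17HG. MiR-191* lies at chr3:49020631-49020652 and miR-425-3p at chr3:49020159-49020180, both on the minus strand and within the bounds of DALRD3, with NDUFAF3 also overlapping the former. MiR-200a* lies at chr1:1167878-1167899 on the plus strand, within MIR200BHG. MiR-182* lies at chr7:129770406-129770426 on the minus strand, outside protein-coding and long non-coding genes of the table. MiR-324-3p lies at chr17:7223308-7223330 on the minus strand, within the bounds of ACADVL, and miR-432* at chr14:100884544-100884564 on the plus strand, within those of RTL1. Overlap was taken from coordinates alone, without regard to the gene's strand, so it does not by itself make a gene the host. The gene table gives no exons, so exonic or intronic position is not stated.

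None of the 44 probes was detected on any array. A probe was called detected when its signal exceeded the median of the 604 mismatch probes, copies with 2 changed bases, by more than 3 scaled median absolute deviations. Above that median this threshold stood at 148, 151, 137 and 146 intensity units on the arrays at 0, 0.1, 1 and 10 nM. By the same rule the arrays detected 62, 47, 61 and 74 of the 455 human miRNAs, or 13.6, 10.3, 13.4 and 16.3%. All of those were human probes outside the group of 44. The authors' value table leaves dim cells empty, and it holds no value for any of the 44 on any array. That table holds the same intensities less the same mismatch median, so its empty cells are not separate support.

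Values below are net signals, the probe's mean signal minus the array's median mismatch signal, in intensity units. The 44 probes spanned -141.5 to 97.75 on the untreated array, with a median of -5.88. On the arrays at 0.1, 1 and 10 nM their highest values were 108.5, 114.25 and 100.25, and their medians 35.3, 6.38 and 14.4. The 331 other human probes that no array detected had medians of 2.5, 18, 2 and 18.75 in order of dose, so both sets sat around the mismatch level. Of the 44, 22 had their highest net signal on the 0.1 nM array, as did 148 of the 331. These signals do not show that the strands were missing from the cells, only that they were not detectable over the mismatch background.

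The other strand was detected for 6, 4, 6 and 7 of the 42 pairs on the arrays at 0, 0.1, 1 and 10 nM. Those counts lie near the share detected among all 455 human miRNAs, which was 13.6, 10.3, 13.4 and 16.3%. In no pair on any array were both strands detected, and in none was the star or -3p strand the detected one. Both counts follow from the absence of any detected member and are not a separate result on strand choice. The remaining 36, 38, 36 and 35 pairs had neither strand detected. Brightness also depends on the probe, so strands were compared by detection and not by a ratio of their signals.

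MiR-17-5p, of a cluster known for promoting proliferation, was detected throughout, with net signals of 711, 587.5, 895 and 855.5 in order of dose. Its partner miR-17-3p stood at 67.25, 24.75, 51.5 and 51.25. The -3p probe exceeded its own mismatch probe by 76.25, 73.75 and 68.5 at 0, 1 and 10 nM and was 0.25 units below it at 0.1 nM. It was the highest at 0 nM and stayed below the threshold everywhere. The mouse probe of the same name stood at 29, 17, 24 and 56.25.

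MiR-191, abundant in many cell types, had net signals of 2118.75, 1932.75, 1909.25 and 1472.25 in order of dose. MiR-191* stood at -9.75, 48.25, 10.25 and 31, all within the mismatch range. Its own mismatch probe was lower on every array, by 21.25, 101.25, 50 and 62.25. The guide strand was lowest at 10 nM. The star probe was undetected on every array, so its order over doses cannot be set against that of the guide.

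MiR-200a, of the epithelial miR-200 family that targets ZEB mRNAs, had net signals of 2075.5, 569, 1494.5 and 1359. MiR-200a* stood at 61, 32.25, 2.75 and 21.75, and differed from its mismatch probe by 32.5, -3.25, 1 and -2.5. Both probes read highest on the untreated array, with miR-200a lowest at 0.1 nM and miR-200a* at 1 nM. The star probe was undetected throughout, so its order over doses says nothing about the strand.

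MiR-425-5p, from the hairpin beside miR-191, was detected on all 4 arrays, with mean signals before subtraction of 864.5, 614.75, 643.75 and 531.25 in order of dose. In the same unit, miR-425-3p stood at 454.5, 421.5, 318.75 and 333.25, or net signals of 83, 66.5, 23 and 53. Its mismatch probe was brighter than the match probe on the 3 treated arrays, by 41.5, 60.25 and 35.75, and dimmer by 2 on the untreated array. On the treated arrays the -3p signal was thus lower than that of a copy with 2 changed bases.

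The other strands of the remaining 3 pairs were near the threshold themselves. MiR-182, of an epithelial and sensory cluster, had net signals of 198.25, 146, 199.25 and 174 and was below the threshold at 0.1 nM. MiR-182* stood at -91.5, -53, -80 and -78.25, below the mismatch median and below its own mismatch probe on all 4 arrays. MiR-324-5p had net signals of 172, 116.75, 184 and 204, likewise undetected at 0.1 nM.

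MiR-324-3p, at 73.9% G and C the most GC-rich matched sequence, stood at 44, 108.5, 60 and 81. It was above its mismatch probe by 8, 51.5, 39.25 and 25.25. At 0.1 nM its signal reached 91.6% of the threshold signal. There the -5p and -3p probes of miR-324 stood at 116.75 and 108.5, neither detected.

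MiR-432 was detected at 10 nM alone, with net signals of 71.75, 80.25, 107 and 184.5. Its mismatch probe was at 101.5, 102.5, 100.75 and 102.75, brighter than the match probe at 0 and 0.1 nM. MiR-432* stood at 21.25, 87.5, 27 and 37 and was highest at 0.1 nM.

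The star and -3p probes that came nearest to the threshold were miR-380-3p, miR-324-3p and miR-409-3p. MiR-380-3p and miR-409-3p belong to the imprinted miRNA cluster of chromosome 14, known for expression in placenta and brain. Their RefSeq sequences, shown because they came so near to it, have different seeds.
miR-380-3p: uAUGUAAUaugguccacaucuu
miR-409-3p: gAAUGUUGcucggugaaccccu
They lie at chr14:101025056-101025077 and chr14:101065346-101065367, both on the plus strand of GRCh38.p14.

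MiR-380-3p had net signals of 66.5, 81, 114.25 and 18.5 in order of dose. At 1 nM its signal was 94.8% of the threshold signal, the highest share of any of the 44. It exceeded its mismatch probe by 86, 128, 139 and 36.75. The mouse probe of the same name stood at 70, 72.5, 27.5 and 34, so the 2 probes lay close at 0 and 0.1 nM and apart at 1 nM. The -5p probe of the hairpin was between -34 and -2.25.

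MiR-409-3p had net signals of 60.25, 90, 95.75 and 100.25, lowest on the untreated array. Its mismatch probe stood at 52.5, 54, 55.75 and 78.75, so the excess of the match probe was 7.75, 36, 40 and 21.5. The rat probe of that name stood at -7.25, 32.5, 5.75 and 26.5. The order of the human probe over doses was not the order of the rat probe. Neither probe was detected on any array, so neither order says anything about the strand.

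By RefSeq 9 of the 44 lie on chromosome 14, and their net signals ranged from -54 to 114.25. MiR-299-3p stood at 66, 82.75, 42.25 and 82.25 in order of dose, beside 55.5, 20, 71.75 and 57.75 for its mismatch probe. MiR-154*, miR-376a*, miR-369-3p, miR-485-3p and miR-493-3p did not exceed 40.25 on any array.

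The primate miRNA cluster of chromosome 19, known for expression in placenta and stem cells, supplied 13 of the 44. Net signals there ranged from -141.5 to 97.75, and none was detected. MiR-518c* was the brightest on the untreated array, at 97.75, 79.25, 46 and 73.5 in order of dose. MiR-518f* stood at 80.75, 88.25, 66.75 and 63.5, but its mismatch probe was brighter at 0, 0.1 and 1 nM, by 56.75, 26.25 and 42.5.

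The dimmest of all 44 was miR-516-3p, at -141.5, -95.75, -101 and -95, also of chromosome 19. Its own mismatch probe stood at -108.5, -87.5, -69.25 and -59.75. Match and mismatch were thus both well under the array median. MiR-512-3p, of the same cluster, stood at 56, 53.25, 40.25 and 44.5, and below its mismatch probe on all 4 arrays.

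The members held 3 seeds that were each shared by 2 of them, and these pairs are shown because a common seed is what a common target set would rest on. The sequences are those of RefSeq.
miR-30a-3p: cUUUCAGUcggauguuugcagc
miR-30e-3p: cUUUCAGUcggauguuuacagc
miR-520a*: cUCCAGAGggaaguacuuucu
miR-525*: cUCCAGAGggaugcacuuucu
miR-520d*: cUACAAAGggaagcccuuuc
miR-524*: cUACAAAGggaagcacuuucuc
The last 4 come from chromosome 19. The letters AGCACUUU, looked for as written after the sequences had been seen, occurred in 5 of the 12 matched members on that chromosome and in 0.591% of the 2370 mature names of the table. The 12 include miR-373*, outside the cluster described above, and leave out miR-199a*, counted under chromosome 1 although a second copy lies on chromosome 19.

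MiR-30a-3p had net signals of 50.75, 49.5, 55.75 and 40, and miR-30e-3p 29.75, 32, 28 and 42.75, close across doses. Their mismatch probes lay at 34, 48, 30.25 and 62.75 and at 35.5, 30, 20.75 and 35.25. The -5p strands of these hairpins, the usual guides, were not detected either, with miR-30a-5p at 35, 16.75, 47 and 76 and miR-30e-5p at -64, -38.5, -50.5 and -36.75. In these pairs the array therefore saw neither strand.

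MiR-520a* and miR-525* ranged from -39 to -6.25, below the mismatch median on all 4 arrays. MiR-520d* stood at 9, 39, 0.75 and -6.5, and miR-524* at 17, 72, 7.75 and -0.25. The last pair was highest at 0.1 nM and lowest at 10 nM.

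Strands known from other cell types were at background. MiR-142-3p, of blood cells, stood at -21.25, 9.25, -12.5 and 15.5, with the mouse probe of that name at -27, 27.25, -4.5 and 2. MiR-126*, from an endothelial gene, stood at -5.75, 38, 12.5 and 15.75. MiR-199a*, abundant in stromal cells, stood at 40.25, 50.75, 46.75 and 64.5. MiR-9*, of neurons, stood at -37.25, -48.75, -31.75 and -31, although it exceeded its own mismatch probe by 76.75, 50.25, 27 and 21.25. The 4 stem cell members miR-302a*, miR-302b*, miR-302c* and miR-373* ranged from -28.25 to 76.5.

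Of the miR-17 relatives, miR-18a* and miR-363* had net signals between -23.25 and 69.25. MiR-181a*, miR-202*, miR-452* and miR-542-3p ranged from -79.5 to 35.75. With these, each of the 44 has been placed in a group.

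Match probes exceeded their own mismatch probes in 24 of 44 cases at 0 nM, 32 of 43 at 0.1 nM, 28 of 44 at 1 nM and 33 of 43 at 10 nM, mismatch probes listed at 0 being left out. The shares were 54.5, 74.4, 63.6 and 76.7%, beside 59.0, 71.6, 55.2 and 68.5% for the other undetected human probes. Of the 42 members with a mismatch value on every array, 12 were above it on all 4, or 28.6%. The same held for 36.8% of 318 other undetected probes. With a margin of 3 scaled deviations over their own mismatch probes, 0, 0, 1 and 0 members passed in order of dose, the 1 being miR-380-3p, beside 12.9, 9.58, 13.1 and 13.8% of human miRNAs. With the detection limit lowered to 2 scaled deviations, 0, 1, 2 and 1 members passed, beside 17.6, 18.5, 17.6 and 21.8%. The median excess of match over own mismatch signal was 5.88, 29.5, 7.88 and 24.5 in order of dose, beside 10.25, 22.25, 6.5 and 20 for the other undetected probes.

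The faint signals kept their order from array to array. Across the 44 probes, Pearson's r of net signals between 2 arrays ran from 0.779 to 0.881. A member's mean net signal went with that of its mismatch probe at r = 0.797 over the 44 (Spearman rho = 0.811). Over the 41 members matched to RefSeq, r with the GC content was 0.403 for the match probes and 0.394 for their mismatch probes. The 22 members with 50% or more G and C had a median mean net signal of 37.7, against -2.25 for the 19 below. These are descriptions over probes that share arrays and base composition, and probes are not replicates.

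For 9 members a mouse or rat probe had the same name, and none of those was detected either. The net signals of human and rodent probes differed by a median of 14.4 units over 36 values, and by 90 at most, for miR-409-3p at 1 nM. The sequences of the probes may differ between species.

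No response of these strands to R1881 could be measured. With neither array of any comparison detecting a member, none of the 44 entered the counts of 2-fold differences to the untreated array. Of the human miRNAs that did enter, 7.69, 1.52 and 5.06% differed by 2-fold or more at 0.1, 1 and 10 nM. With the detection filter removed, 0 of the 44 differed by 2-fold at any dose, beside 1.1, 0.22 and 0.879% of the 455. These ratios were taken after normexp correction with an offset of 50, which draws ratios of faint signals towards 1. A ratio near 1 therefore says little about the RNA.

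None of the 44 entered the limma fit of a straight line over the dose steps, which called 0 of 80 miRNAs, or 0%. With all 455 human miRNAs in that fit, limma called 0 of the 44 and 0% of all 455. At an unadjusted p under 0.05 there were 2 of the 44 and 42 of the 455, and the lowest adjusted p among the 44 was 0.462. That fit leaves 2 residual degrees of freedom and measures the spread around a line, not between cultures.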

How the data were processed

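Per the file headers each deposited table holds 1 mean signal for a probe, a linear intensity. The sources used here name no scanner, image software or background step. The authors' value table was found to be the same intensity minus the array's median mismatch signal, with cells filled from about 1.5 times that median upward. Its column medians were 489, 377.75, 493 and 333.25, and no log step, scaling between arrays or ratio to untreated cells was found in it.

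Net signals and thresholds used the median and scaled median absolute deviation of all 604 mismatch probes, of which 3 to 7 per array are listed at 0. For ratios and fits, signals were corrected with normexp (offset 50), the 785 match probes were quantile normalised, and log2 values were taken, in limma 3.58.1 under R 4.3.3. The trend fit used lmFit and eBayes, two-sided, with Benjamini-Hochberg adjustment at 0.05, and was tested on simulated data. The number of arrays, 4 without replicates, limits the precision.

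Members, lists and tests were chosen with earlier results of these data known. Named were members nearest to the threshold, members whose other strand was detected, and members of lists for cell types and clusters; miR-518f*, miR-516-3p, miR-182* and the seed pairs were also singled out after their values or sequences were seen. Starred names were given their current arm names by hand, and 41 of 44 were matched to RefSeq. Alternatives covered the detection limit, background correction, normalisation, the fold threshold, the filter and the arrays fitted.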

Additional observations from a re-analysis of the deposited data

Results flagged for a closer look

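The comparisons above do not use the 24 rodent star and -3p probes with no human probe of that name. Among these, the mouse probe of let-7d* was detected at 0.1 nM alone. Its net signal was 175 at 0.1 nM, above that array's threshold, and 27.5, 55.75 and 39 at 0, 1 and 10 nM. Its mismatch probe stood at 23 at 0.1 nM. The human probe of let-7d, the other strand, was detected on all 4 arrays, at 3281, 3219, 3442 and 4188.75 in order of dose.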

How the results depend on the processing

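No star or -3p probe was detected under the limit of 5 scaled deviations or the 99th percentile of the mismatch probes. The main threshold joined with the own mismatch probe also gave none. The limit of 5 scaled deviations and the joined rule are stricter than the main one, so neither could add a member. No probe passed either with mismatch probes at 0 left out, with human mismatch probes only, or among rodent probes of the same name. Those settings were added after seeing the data. At 2 scaled deviations, which 18.5, 17.6 and 21.8% of human miRNAs passed at 0.1, 1 and 10 nM, 1 member passed at 0.1 nM (miR-324-3p), 2 at 1 nM (miR-380-3p and miR-409-3p) and 1 at 10 nM (miR-409-3p). That limit gave 1 pair with both strands at 0.1 nM, and 2 and 1 pairs with the star or -3p strand alone at 1 and 10 nM. The own mismatch probe alone, also added after seeing the data, gave 1 member, miR-380-3p at 1 nM, at 139 against a limit of 137, beside 13.1% of human miRNAs. At 5 scaled deviations 4 pairs had the other strand alone on each array, not 6, 4, 6 and 7 in order of dose. Counts of 2-fold differences and of limma trend calls among members stayed at 0 under each alternative run; members entered neither without dropping the detection filter. The authors' table gave no member a value, but it rests on the same signals and mismatch median. No log2 ratio of a single member is given, since both arrays were below the threshold. No paired analysis was possible because each dose has 1 array, so the groups share fewer than 2 replicate numbers. Signal over background and the lack of replicates both limit what these arrays show of passenger strands.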

Other observations

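The array held 33 mouse or rat probes with a star or -3p name, 24 of which had no human probe of that name. Of the 33, 4 were detected on at least 1 array, beside 80 of the 455 human miRNAs. The 4 include both the mouse and the rat probe of miR-140*. The rat probe of miR-151* was detected on all 4 arrays, with net signals of 251.5, 183.5, 224.75 and 235.25 in order of dose. The rat probes of miR-151* and miR-140* had no mismatch value of their own to be set beside these signals. The human miR-151 probe, for the other strand, was detected on none, at 87.5, 41, 19.75 and 19.75.

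Both rodent probes of miR-140* were brighter at 0 and 0.1 nM than at 1 and 10 nM. The rat probe stood at 205.25, 187.5, 128.75 and 122 and was detected on the first 2 of these arrays. The mouse probe stood at 159.5, 127.5, 91 and 96 and was detected on the untreated array alone, with its mismatch probe between -10 and 19.75. The human miR-140 probe stood at -1.5, 6.25, 0 and 20.25 and was not detected. In these hairpins a star probe made for a rodent was detected where the human probe of the other strand was not. Neither the match of rodent probes to human RNA nor a change between doses was tested, with 1 array per dose.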
